A study of Mus musculus with 9 samples.

Results

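The genes described here encode the proteasome: its core, its regulatory caps, its activators and its assembly factors, together with the 3 subunits that form the immunoproteasome. They were taken as every gene of the deposited table whose symbol starts with Psma to Psmg followed by a digit, pseudogenes left out, which gave 50 of 53715 genes. They comprise 16 core genes, 3 immune core genes, 20 cap genes, 5 activator genes, 4 core assembly chaperones and 2 others. The 2 others are the proteasome inhibitor Psmf1 and Psmc3ip, a cofactor of meiotic recombination that shares the start of its symbol but is no proteasome subunit. RNA was sequenced in mouse primary myoblasts, the muscle precursor cells that fuse into fibres, at passage 1. Every library came from the strain C57BL/10ScSn-Dmdmdx/J, which carries the mdx mutation of the dystrophin gene, so there was no group with intact dystrophin. Cells were treated with glycine at 0.2 mM for 3 libraries and at 0.8 mM for the other 6, so the question is which RNA levels differ with the concentration of this amino acid.

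The proteasome degrades proteins that carry ubiquitin chains. Its core is a barrel of alpha rings around beta rings, and the beta subunits Psmb5, Psmb6 and Psmb7 hold the cutting sites. A cap on the end of the barrel has a base, whose Psmc ATPases unfold the substrate, and a lid, whose deubiquitinase Psmd14 removes the ubiquitin chain. In immune cells, and in other cells exposed to interferon gamma, Psmb8, Psmb9 and Psmb10 take the places of Psmb5, Psmb6 and Psmb7 in newly built cores, which changes the peptides made for display on MHC class I. In muscle the pathway breaks down myofibrillar proteins, and it is best known there for its part in atrophy.

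Values are TPM, a level per length of transcript, scaled to the same sum in each library, that can be compared between genes. Read numbers cannot be recovered from TPM, and sequencing depth is therefore unknown. A gene "rose" or "fell" where its level at 0.8 mM differed from that at 0.2 mM with a limma adjusted p under 0.05, where the adjustment covers all 10049 genes tested. Changes were computed on log2(TPM + 1), 0.8 mM minus 0.2 mM, which understates the change of genes at low TPM. Each mean is followed by its SD, with n = 3 at 0.2 mM and n = 6 at 0.8 mM. Nothing in the labels ties the libraries to separate cultures or animals, and the p-values then measure only the spread between these libraries, which may be technical. The labels number the libraries as 2 series that coincide with the glycine concentrations, and an effect of the series and an effect of glycine cannot be told apart. In bulk RNA, fewer cells of a type and less RNA per cell cannot be told apart.

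Library pairs of the same concentration had Spearman correlations across genes of at least 0.920, and pairs of different concentrations of at most 0.888. Myoblast markers were present in every library, and 5 of 6 rose, where 16.7% of all genes tested rose and 9.81% fell. Their summed level lay between 371 and 436 TPM at 0.2 mM and between 844 and 1049 TPM at 0.8 mM. Most of that sum was Myog, with means of 247 ± 16.9 and 523 ± 41.2 TPM, and Des, with 104 ± 12.8 and 356 ± 30.5 TPM. Pax7 did not pass the test, with 0.712 ± 0.176 and 1.20 ± 0.312 TPM (limma adjusted p = 0.130). Of 12 leukocyte markers 4 rose and 3 fell, and their sum was 1946 to 2124 TPM at 0.2 mM and 2085 to 2549 TPM at 0.8 mM. Among them the general leukocyte marker Ptprc did not pass the test, with 4.30 ± 2.38 TPM and 3.61 ± 1.62 TPM, and the myeloid markers went both ways. Cd68, Cd53 and Cd74 fell, with log2 changes of -1.64, -1.51 and -0.62, and Cd14, Lyz2, Itgam and Tyrobp rose, with 1.24, 0.77, 0.57 and 0.41. Of 5 T and B cell markers 0 reached the level for testing, with a sum of at most 1.02 TPM in any library, and Cd3e, Cd3g and Ms4a1 were listed at 0 in the 3 libraries at 0.2 mM. Of 5 fibroblast markers 4 rose, with sums of 2126 to 2472 TPM at 0.2 mM and 2434 to 2949 TPM at 0.8 mM. Dcn, the largest part of these sums, did not pass, with 1878 ± 184 and 1689 ± 209 TPM. Ly6a, the next largest, rose from 313 ± 19.6 to 901 ± 37.1 TPM. Both endothelial markers tested, of 4, rose, with sums of all 4 of 1.82 to 2.10 TPM and 3.99 to 5.70 TPM. The part of these cell type differences in the results on the proteasome was not tested.

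Of the 50 genes, 48 passed the filter on low values. The other 2 were Psma8, a core subunit of the testis that reached at most 0.241 TPM, and Psmb11, a core subunit of the thymus that was listed at 0 in every library. Of the 48, 15 rose and 8 fell, and 25 did not pass the test. Over all genes tested 16.7% rose and 9.81% fell. Most proteasome genes are expressed well above the bulk of the genes, and among genes with a mean of at least 5 TPM the shares were 27.7% and 17.2%. In that fit 33.3% of the 45 proteasome genes rose and 20.0% fell. The groups did not overlap for 16 genes that were higher and 8 that were lower at 0.8 mM, where 17.6% and 10.6% of all genes tested did the same. The median log2 change was 0.12 over the 48 genes and 0.06 over all genes tested.

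The balance between rises and falls depended on how libraries were scaled: 15 rises and 8 falls on the TPM as deposited became 11 and 11 after median-ratio scaling, and 9 and 11 after quantile normalization. Over all genes the share of rises among the genes called was 63.1% on TPM, 52.6% after median-ratio scaling and 49.8% after quantile normalization. All 8 falls remained under both scalings. The median log2 change of the 48 genes was 0.03 with median ratios and -0.01 with quantiles.

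Of the 14 core genes tested 8 rose and 1 fell, with a median log2 change of 0.22. Of the 20 cap genes 7 rose and 3 fell, with a median of 0.17. No immune subunit passed the test, and the median of the 3 was -0.28. Of the 5 activator genes 0 rose and 2 fell, and of the 4 core assembly chaperones 0 rose and 2 fell, with medians of -0.16 and -0.34. Every rise was therefore in the core or the cap, which hold 34 of the 48 genes tested, while 4 of the 8 falls were outside them. Among these 4 are Psme2 and its near-identical copy Psme2b, whose falls are not separate evidence. For comparison, 16.7% of all genes tested rose and 9.81% fell, and among genes with a mean of at least 5 TPM the shares were 27.7% and 17.2%. Of the 15 rises, 11 remained after median-ratio scaling and 9 after quantile normalization. Differences between classes were not tested.

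**Figure D1:**
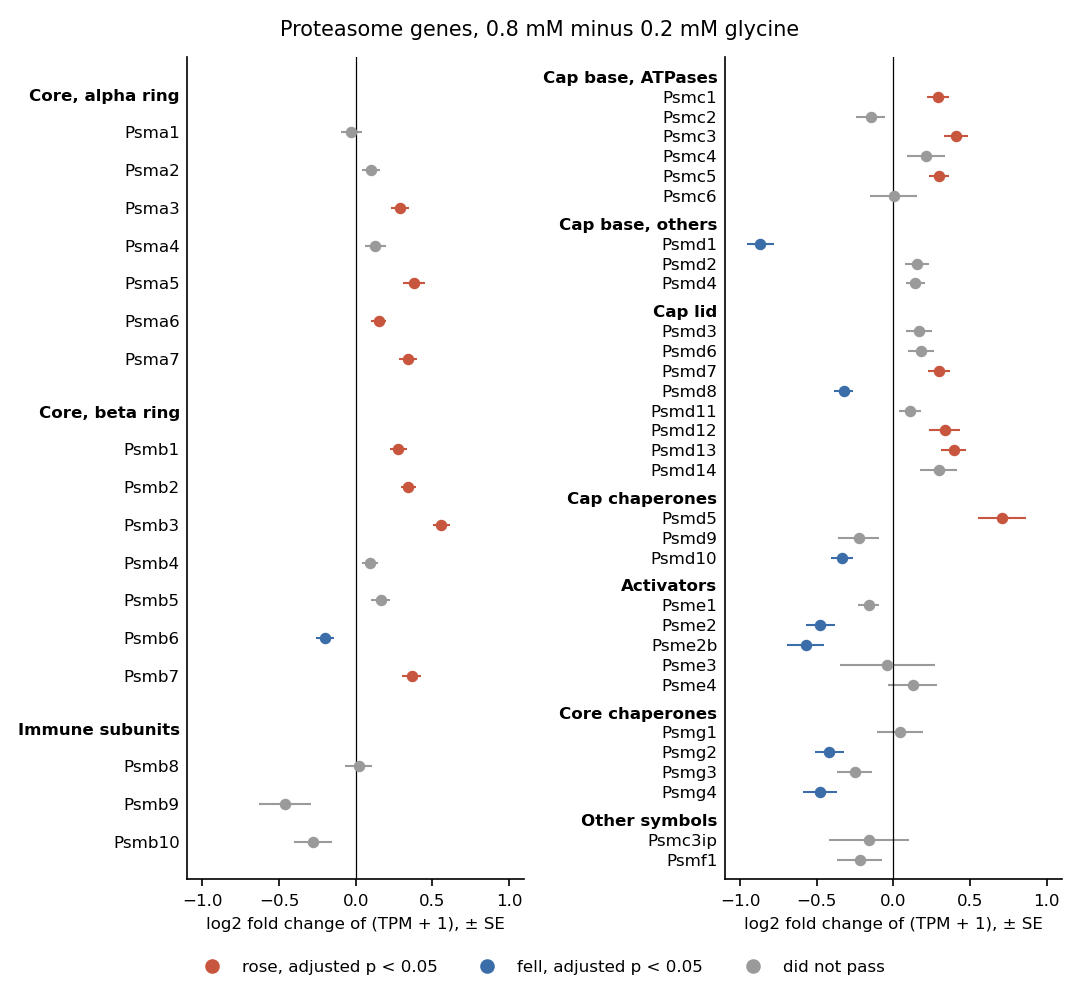
Log2 change of each proteasome gene from 0.2 to 0.8 mM glycine on the log2(TPM + 1) scale, with its standard error, grouped by role and coloured by the limma call at an adjusted p of 0.05. Rises lie in the core and the cap, from 0.15 for Psma6 to 0.71 for Psmd5, and the lowest point is Psmd1 at -0.87; after quantile normalization Psma6 lies at -0.070.

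As a class the 14 core subunits had the highest median level, though Psme2, Psmg4 and Psmd8 were above many of them, and their summed level was 2357 ± 30.8 TPM at 0.2 mM and 2742 ± 67.7 TPM at 0.8 mM. Summed over the 50 genes, the transcripts were 0.393% of all TPM at 0.2 mM and 0.421% at 0.8 mM. At 0.2 mM the means of the 14 core subunits lay between 45.0 TPM for Psma2 and 336 TPM for Psmb6. RNA levels were therefore unequal for subunits that occur in equal number in a barrel built without the immune subunits. The order at the top differed between the concentrations: Psmb6, Psmb5 and Psma7 had the highest means at 0.2 mM, and Psmb3, Psma7 and Psmb5 at 0.8 mM. At 0.2 mM the lowest Psmb6 library, at 322 TPM, lay under the highest Psmb5 library, at 323 TPM, so these neighbours overlapped. At 0.8 mM Psmb3 and Psma7 overlapped as well, while the lowest Psma7 value, 352 TPM, was above the highest Psmb5 value, 347 TPM.

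**Figure D2:**
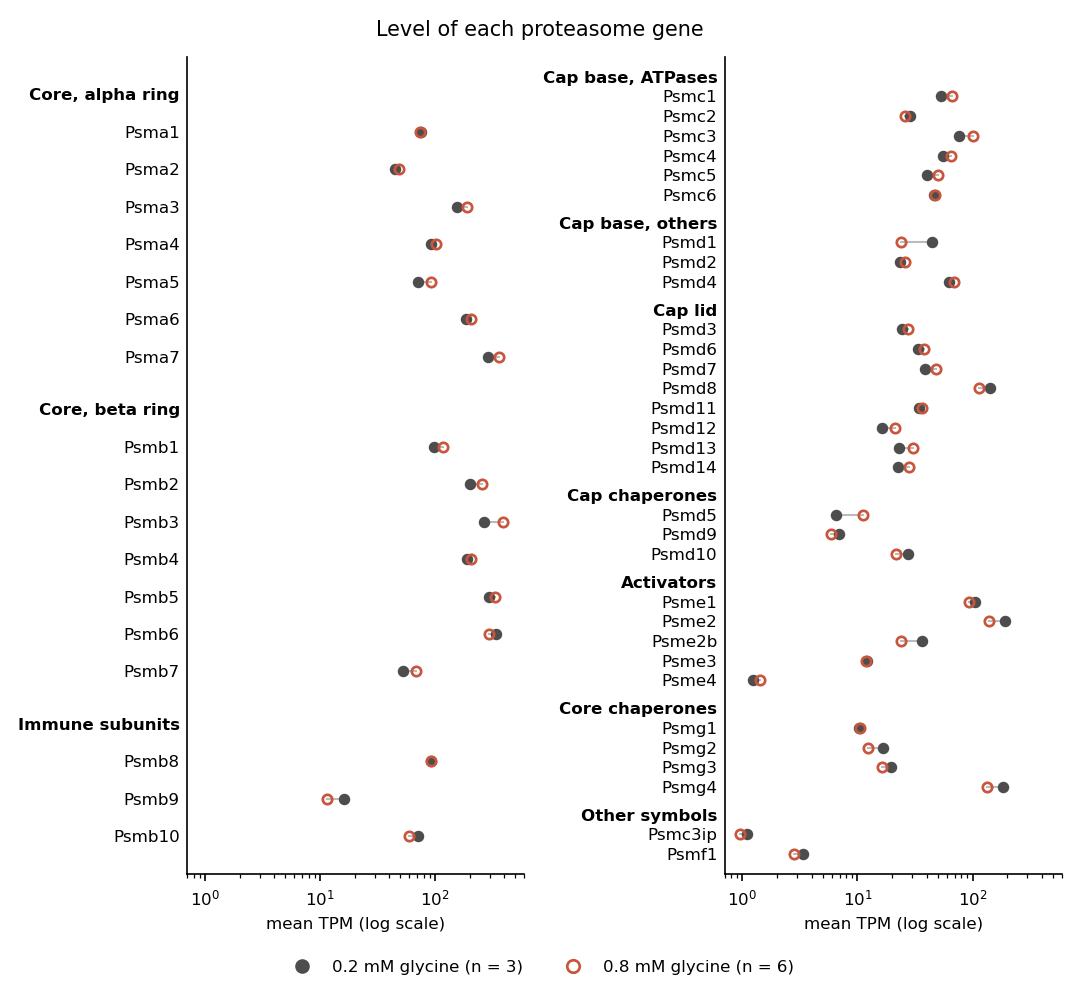
Mean TPM of each proteasome gene on a log axis at 0.2 mM (3 libraries) and 0.8 mM glycine (6 libraries), grouped by role, with a line joining the groups. Core subunits span 45.0 to 336 TPM at 0.2 mM, while the activator Psme4 lies at 1.22 TPM and the inhibitor Psmf1 at 3.38 TPM.

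Psmb3, a structural subunit of the beta ring on chromosome 11 (GRCm38, 97703399 to 97713500), had the smallest p among the core genes. It measured 261, 250.02 and 284 TPM at 0.2 mM, and at 0.8 mM its lowest, median and highest values were 367, 394 and 404 TPM. Every library at 0.8 mM was above every library at 0.2 mM. The change was 1.47-fold on the TPM + 1 scale (log2 0.56, SE 0.05, limma adjusted p = 2.17e-05). Psmb2, also a beta subunit without a cutting site, measured 199, 207 and 201 TPM at 0.2 mM and 243, 258 and 273 TPM as lowest, median and highest at 0.8 mM. These groups did not overlap either (log2 0.34, SE 0.05, limma adjusted p = 0.000429). Psmb1, another structural beta subunit, rose from 97.7 ± 4.54 to 119 ± 4.29 TPM (log2 0.28, SE 0.06, limma adjusted p = 0.00352). Psmb4, the remaining structural beta subunit, had 191 ± 6.27 and 204 ± 9.20 TPM, short of the threshold (limma adjusted p = 0.223). After quantile normalization the log2 changes of Psmb3, Psmb2 and Psmb1 were smaller, at 0.32, 0.13 and 0.16 (adjusted p = 0.000388, 0.0463 and 0.0988).

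The 3 constitutive catalytic subunits differed in direction. Psmb7, which carries the trypsin-like site, had 53.6, 53.5 and 50.02 TPM at 0.2 mM and a lowest, median and highest value of 64.3, 67.4 and 72.4 TPM at 0.8 mM. It rose without overlap (log2 0.36, SE 0.06, limma adjusted p = 0.00124). Its exons share 405 bases with Nek6, a gene on the opposite strand, and without knowledge of the strand used in counting the reads of these bases cannot be assigned. Psmb5, which carries the chymotrypsin-like site, measured 301, 269 and 323 TPM at 0.2 mM and 316, 333 and 347 TPM as lowest, median and highest at 0.8 mM. The groups overlapped and the test was not passed (log2 0.16, SE 0.06, limma adjusted p = 0.0811), but it was passed without the third 0.2 mM library (adjusted p = 0.0319). Psmb6, which carries the caspase-like site, was the only core subunit of the 14 that fell. It had 338.5, 348 and 322 TPM at 0.2 mM and 260.3, 297 and 311 TPM as lowest, median and highest at 0.8 mM, so every 0.8 mM library was lower. The fall was small (log2 -0.20, SE 0.06, limma adjusted p = 0.0297). It missed the threshold without the first 0.2 mM library (adjusted p = 0.0887) and without the second (adjusted p = 0.114), and was larger after quantile normalization (log2 -0.45, adjusted p = 0.000132).

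The alpha ring forms the gate of the barrel, and 4 of its 7 ubiquitously expressed subunits rose. Psma7 measured 301, 304 and 257 TPM at 0.2 mM and 352, 367 and 374 TPM as lowest, median and highest at 0.8 mM. The groups did not overlap (log2 0.34, SE 0.06, limma adjusted p = 0.00133). Psma5 rose from 71.1 ± 5.02 to 92.8 ± 6.20 TPM (log2 0.38, SE 0.07, limma adjusted p = 0.00285) and Psma3 from 157 ± 7.74 to 192 ± 10.5 TPM (log2 0.29, SE 0.06, limma adjusted p = 0.00447). Psma6 rose by the least, from 185 ± 3.32 to 205 ± 8.31 TPM (log2 0.15, SE 0.05, limma adjusted p = 0.0495). That call was lost when any library other than the first at 0.8 mM was left out, with adjusted p-values up to 0.129, and after quantile normalization the log2 change of Psma6 was -0.070. Psma1, Psma2 and Psma4 did not pass, with log2 changes of -0.03, 0.10 and 0.13. Of the core rises, those of Psma3, Psma6, Psma7 and Psmb1 were lost after quantile normalization, where Psma3 and Psma7 had log2 changes of 0.12 and 0.10, and that of Psma6 was also lost after median-ratio scaling.

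**Figure D3:**
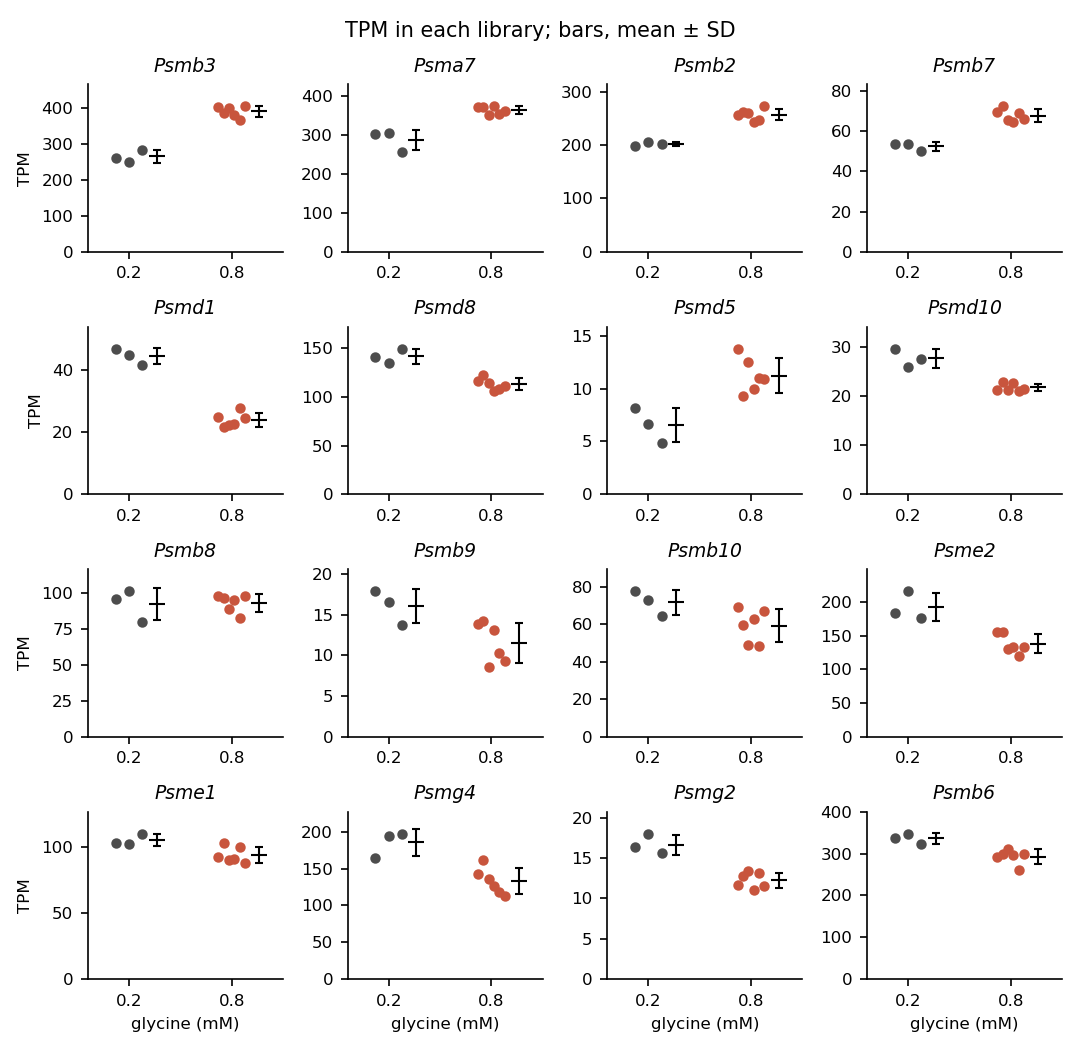
TPM of 16 proteasome genes in each of the 9 libraries, by glycine concentration, with each point a library, bars for the mean ± SD of the group, and an axis that starts at 0. The groups do not overlap for Psmb3, Psma7, Psmb2, Psmb7 and Psmd5, which are higher at 0.8 mM, and for Psmd1, Psmd8, Psmd10, Psme2, Psmg4, Psmg2 and Psmb6, which are lower, while Psmb8, Psmb9, Psmb10 and Psme1 overlap.

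The largest change of any proteasome gene was in the base of the cap. Psmd1, the large scaffold subunit of the base, lies on chromosome 1 (GRCm38, 86064387 to 86139151). It measured 46.9, 44.9 and 41.7 TPM at 0.2 mM, and its lowest, median and highest values at 0.8 mM were 21.7, 23.7 and 27.8 TPM. The highest library at 0.8 mM was far below the lowest at 0.2 mM. On the TPM + 1 scale the fall was to 0.548 of the 0.2 mM value (log2 -0.87, SE 0.09, limma adjusted p = 3.65e-05). Every alternative tried kept the fall past the threshold, with log2 changes between -0.95 and -0.83. Its exons share 553 of 7265 bases with Htr2b on the opposite strand and with a predicted gene, and reads of those bases cannot be assigned to 1 gene. Psmd2, the other scaffold of the base and a docking site for ubiquitin-like domains, went from 23.3 ± 1.25 to 26.0 ± 1.59 TPM (log2 0.15, limma adjusted p = 0.186), which did not pass. The ubiquitin receptor Psmd4 had 62.2 ± 3.48 and 68.7 ± 2.72 TPM (log2 0.14, limma adjusted p = 0.117), and did not pass either. The scaffold pair of the base thus had opposite signs, of which only the fall of Psmd1 passed the test.

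The 6 ATPases of the base summed to 301 ± 24.3 TPM at 0.2 mM and 355 ± 17.5 TPM at 0.8 mM, and 3 of them rose. Psmc3 rose from 75.9 ± 6.79 to 101 ± 7.54 TPM (log2 0.41, SE 0.08, limma adjusted p = 0.0033), without overlap between groups. It shares 215 exonic bases with Slc39a13. Psmc5 rose from 40.4 ± 0.633 to 49.9 ± 2.54 TPM (log2 0.30, SE 0.06, limma adjusted p = 0.00588). Psmc1 rose from 53.7 ± 5.93 to 65.7 ± 1.99 TPM (log2 0.29, SE 0.07, limma adjusted p = 0.0137), but its adjusted p was 0.0618 without the second 0.2 mM library and 0.0515 with median-ratio scaling. The other ATPases did not pass. Psmc2, Psmc4 and Psmc6 had log2 changes of -0.15, 0.21 and 0.00.

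Of the 8 lid subunits with a Psm symbol 3 rose and 1 fell, and their summed level, which leaves out the small lid subunit Sem1, was 334 ± 13.2 TPM at 0.2 mM and 342 ± 8.76 TPM at 0.8 mM. Psmd13 rose from 22.9 ± 0.677 to 30.5 ± 2.38 TPM (log2 0.39, SE 0.08, limma adjusted p = 0.00438), and it shares 342 exonic bases with Sirt3. Psmd7 rose from 38.9 ± 2.53 to 48.0 ± 2.55 TPM (log2 0.30, SE 0.07, limma adjusted p = 0.0104), though not without the first 0.2 mM library (adjusted p = 0.0573). Psmd12 rose from 16.4 ± 0.937 to 21.1 ± 2.36 TPM (log2 0.33, SE 0.10, limma adjusted p = 0.0326). The call for Psmd12 was lost when the first or second 0.2 mM library or the second or sixth 0.8 mM library was left out, with adjusted p-values of 0.110, 0.103, 0.0564 and 0.0567. After median-ratio scaling and after quantile normalization neither Psmd7 nor Psmd12 passed. Psmd8, the most abundant of these 8, fell. Its values were 141, 134.6 and 149 TPM at 0.2 mM and 106, 113 and 123 TPM as lowest, median and highest at 0.8 mM, with no overlap (log2 -0.32, SE 0.06, limma adjusted p = 0.00276). Psmd14, the deubiquitinase, had 22.4 ± 3.00 and 27.8 ± 3.53 TPM, short of the threshold (log2 0.30, SE 0.12, limma adjusted p = 0.0976), but passed without the sixth 0.8 mM library (adjusted p = 0.0428). Psmd3, Psmd6 and Psmd11 did not pass, with log2 changes of 0.17, 0.18 and 0.11.

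The 3 chaperones that guide assembly of the base, Psmd5, Psmd9 and Psmd10, carry cap symbols but leave the finished particle. Psmd5 measured 8.15, 6.67 and 4.86 TPM at 0.2 mM and 9.34, 10.9 and 13.8 TPM as lowest, median and highest at 0.8 mM. It rose without overlap, by 1.63-fold on the TPM + 1 scale (log2 0.71, SE 0.16, limma adjusted p = 0.00632). Psmd10, also known as gankyrin, went the other way, from 27.6 ± 1.88 to 21.7 ± 0.745 TPM (log2 -0.33, SE 0.07, limma adjusted p = 0.00585). Psmd9 had 6.96 ± 0.764 and 5.83 ± 0.891 TPM, short of the threshold (limma adjusted p = 0.252), and 1849 of its 7248 exonic bases are shared with a predicted gene.

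None of the 3 immune subunits passed the test, and their summed level was 180 ± 19.3 TPM at 0.2 mM and 164 ± 16.0 TPM at 0.8 mM. They were well expressed in these cultures: Psmb8 and Psmb10 lay within the range of the constitutive core subunits. Psmb8 measured 95.7, 101 and 79.6 TPM at 0.2 mM and 82.6, 95.6 and 98.2 TPM as lowest, median and highest at 0.8 mM. The groups overlapped over most of their range (log2 0.02, SE 0.09, limma adjusted p = 0.900). Psmb9 measured 17.9, 16.6 and 13.7 TPM at 0.2 mM and 8.57, 11.7 and 14.2 TPM as lowest, median and highest at 0.8 mM. Its groups overlapped through the third 0.2 mM library (log2 -0.46, SE 0.17, limma adjusted p = 0.0683). Psmb9 passed without the second 0.8 mM library (adjusted p = 0.0456), after median-ratio scaling (0.0327) and after quantile normalization (0.0314). Psmb10 measured 77.6, 73.0 and 64.4 TPM at 0.2 mM and 48.4, 61.1 and 69.1 TPM as lowest, median and highest at 0.8 mM. Again the groups overlapped (log2 -0.28, SE 0.12, limma adjusted p = 0.130).

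Psmb8 and Psmb9 lie with the peptide transporter genes Tap1 and Tap2 in a stretch of 34.34 kb on chromosome 17 (GRCm38), within the MHC. Psmb9 and Tap1 are transcribed away from each other and share 212 exonic bases. Psmb10 lies apart from them, on chromosome 8 (105935735 to 105938444). The remaining proteasome genes are spread over the genome, with the most on chromosome 11 (10 genes) and 6 each on chromosomes 2 and 14.

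Each immune subunit replaces 1 constitutive subunit, so the log2 ratio of the pair compares them within a library. The 3 ratios were compared between groups with a two-sided exact permutation test over the 84 arrangements of the libraries, whose smallest possible p is 0.0238, with Benjamini-Hochberg adjustment over the 3. The ratio of Psmb10 to Psmb7 was 0.44 ± 0.08 at 0.2 mM and -0.20 ± 0.23 at 0.8 mM, lower in all 6 libraries at 0.8 mM than in any at 0.2 mM. The difference of -0.64 had the smallest exact p, 0.0238, and failed the correction with an adjusted p of 0.0714, a value that a single smallest p among 3 cannot go below. As a share of the TPM of the pair, Psmb10 was 59.2%, 57.7% and 56.3% in the 0.2 mM libraries and between 41.2% and 50.4% in the 0.8 mM libraries. Of the pair, Psmb7 rose in the test across genes, and Psmb10 did not pass it. The ratio of Psmb8 to Psmb5 was -1.68 ± 0.31 and -1.83 ± 0.11, a difference of -0.14 (exact permutation p = 0.333, adjusted p = 0.333). The ratio of Psmb9 to Psmb6 was -4.31 ± 0.15 and -4.57 ± 0.31, a difference of -0.26 (exact permutation p = 0.238, adjusted p = 0.333). Psmb8 made up 23.7 ± 3.81% and 21.9 ± 1.36% of its pair, and Psmb9 made up 4.55 ± 0.471% and 3.80 ± 0.790%. The difference for Psmb8 rested on the second 0.2 mM library: without it the difference was -0.00151.

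**Figure D4:**
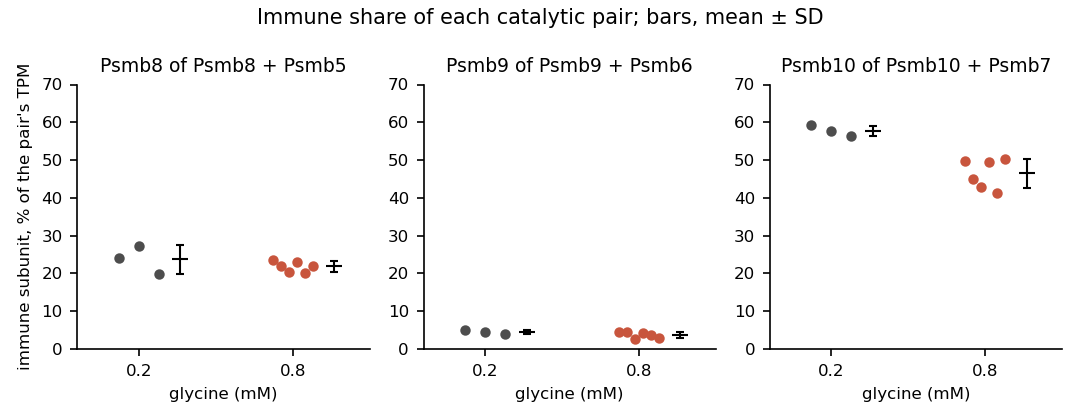
Share of each immune subunit in the summed TPM of itself and the constitutive subunit it replaces, in percent, for each library, with bars for the mean ± SD of the group. Psmb10 holds 56.3% to 59.2% of its pair at 0.2 mM and 41.2% to 50.4% at 0.8 mM, while the groups overlap for Psmb8 and Psmb9.

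The activators bind the ends of the barrel in place of the cap and open its gate without ATP. Psme1 and Psme2 form the ring that works with the immunoproteasome, are induced by interferon gamma, and lie within 12.99 kb of chromosome 14. Psme2 measured 185, 217 and 177 TPM at 0.2 mM and 120.1, 134 and 156 TPM as lowest, median and highest at 0.8 mM. Every library at 0.8 mM was lower, and the gene fell to 0.719 of its 0.2 mM value on the TPM + 1 scale (log2 -0.48, SE 0.10, limma adjusted p = 0.0037). Psme1, its partner in the ring, measured 103, 102 and 109.9 TPM at 0.2 mM and 87.7, 91.3 and 103 TPM as lowest, median and highest at 0.8 mM. The groups overlapped in their upper and lower ends and Psme1 did not pass (log2 -0.16, SE 0.07, limma adjusted p = 0.103), but it did after median-ratio scaling (0.0153) and quantile normalization (0.00759). Psme2b, a single-exon copy of Psme2 on chromosome 11, fell from 36.2 ± 6.25 to 23.8 ± 2.41 TPM (log2 -0.57, SE 0.12, limma adjusted p = 0.00453). The longest transcripts of Psme2 and Psme2b are 99.4% identical over 794 aligned bases, so the split of reads between them is uncertain and their falls are not separate evidence.

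The other activators were low. Psme3, a nuclear activator, had 12.0 ± 4.54 and 11.9 ± 4.83 TPM, a wide spread within both groups (log2 -0.04, SE 0.31, limma adjusted p = 0.942). Psme4, a large single-chain activator, had 1.22 ± 0.414 and 1.41 ± 0.247 TPM, short of the threshold (log2 0.13, limma adjusted p = 0.615). Psmf1, which inhibits the core, had 3.38 ± 0.406 and 2.79 ± 0.568 TPM, short of the threshold (log2 -0.22, limma adjusted p = 0.315). Psmc3ip stayed near 1 TPM, with 1.09 ± 0.207 and 0.947 ± 0.586 TPM (limma adjusted p = 0.706).

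Psmg1 to Psmg4 are chaperones that work in pairs, Psmg1 with Psmg2 and Psmg3 with Psmg4, to build the alpha ring. In each pair 1 partner fell. Psmg4 measured 164, 194 and 197 TPM at 0.2 mM and 113, 131 and 162 TPM as lowest, median and highest at 0.8 mM. The highest 0.8 mM library lay just under the lowest 0.2 mM library (log2 -0.48, SE 0.11, limma adjusted p = 0.00813). Psmg3, its partner, had 19.4 ± 1.79 and 16.2 ± 1.94 TPM (log2 -0.25, SE 0.11, limma adjusted p = 0.124) and passed after median-ratio scaling (0.0423) and quantile normalization (0.0341). Psmg2 fell from 16.6 ± 1.23 to 12.2 ± 0.961 TPM, without overlap (log2 -0.42, SE 0.09, limma adjusted p = 0.00657). Psmg1 had 10.3 ± 2.20 and 10.6 ± 1.46 TPM, short of the threshold (log2 0.04, limma adjusted p = 0.865). Psmg4 was far above its partner in every library. Of the 7 alpha subunits tested, which the chaperones assemble, 4 rose, and the rises of Psma3, Psma6 and Psma7 were lost after quantile normalization. A relation between the chaperone falls and these rises was not tested.

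Factors that belong to the proteasome or work beside it under other names mostly did not pass: of 18 tested, 3 rose and 2 fell, with a median log2 change of 0.14. Over all genes tested the shares were close to these, at 16.7% and 9.81%. Sem1, a small subunit of the lid, rose from 144 ± 1.56 to 163 ± 3.24 TPM (log2 0.18, limma adjusted p = 0.0104), though not after median-ratio scaling (0.166) or quantile normalization (0.541). Vcp, the ATPase that extracts ubiquitinated proteins and hands them to the proteasome, rose from 29.3 ± 1.54 to 37.1 ± 1.99 TPM (log2 0.33, limma adjusted p = 0.00609). Pomp, the chaperone that matures the beta rings, rose from 230 ± 12.1 to 269 ± 22.8 TPM (log2 0.23, limma adjusted p = 0.0461). The Pomp call was lost in 7 of the 9 fits that left out a library, in all but those without 0.8 mM replicate 3 or 5, with adjusted p-values up to 0.165. It was lost after median-ratio scaling (0.220) and quantile normalization (0.998) too. Zfand5, a zinc finger protein that binds the proteasome and stimulates it in atrophying muscle, fell from 29.4 ± 1.33 to 19.5 ± 1.77 TPM (log2 -0.57, limma adjusted p = 0.000811). Akirin2, which brings proteasomes into the nucleus, fell from 4.39 ± 0.0877 to 2.49 ± 0.796 TPM (log2 -0.67, limma adjusted p = 0.0393). That call was lost without any of the 0.2 mM libraries or without 0.8 mM replicate 3, 5 or 6, with adjusted p-values up to 0.105. Adrm1, a ubiquitin receptor of the base, did not pass, with 50.1 ± 5.68 and 66.0 ± 13.3 TPM (log2 0.37, limma adjusted p = 0.146), but passed without the first 0.8 mM library (adjusted p = 0.00719).

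Transcription of proteasome genes is known to be raised by Nfe2l1, a membrane-bound factor that is released when proteasome activity falls short, and in oxidative stress by its relative Nfe2l2. Of 12 genes of this control 0 rose and 2 fell, with a median log2 change of -0.15, and the 2 were these factors. The shares over all genes tested were 16.7% for rises and 9.81% for falls. Nfe2l1 fell from 56.3 ± 2.43 to 29.7 ± 4.11 TPM (log2 -0.91, SE 0.11, limma adjusted p = 0.000142). Nfe2l2 fell from 46.6 ± 4.67 to 29.3 ± 2.17 TPM (log2 -0.65, SE 0.09, limma adjusted p = 0.000303). Between the same 2 groups of libraries, 15 proteasome genes rose and 8 fell on the TPM as deposited, and 9 rose and 11 fell after quantile normalization. Among genes with a mean of at least 5 TPM, 33.3% of the proteasome genes rose and 20.0% fell, where 27.7% and 17.2% of all such genes did. A link between these factors and the proteasome genes was not tested. RNA levels of Nfe2l1 and Nfe2l2 do not measure the active factors, which are controlled mainly as proteins.

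Both factors bind the antioxidant response element, whose core was searched as TGACNNNGC on both strands in the 250 bases before the start of each gene, in RefSeq promoter sequences of GRCm38.p6. Of the 50 genes 42 had a promoter in the table, and 5 of them (11.9%) held the core, against 11.5% of 27025 genes. Of the 5, Psmd12 rose, Psmb6 fell, and Psmb5, Psmc6 and Psmd9 did not pass. The stretches that hold the matches are shown for their sequence only, since the share of holders was close to that over all genes. They are written 5′ to 3′ on the strand of the gene, with the match in capitals. Where the match is on the other strand, the capitals read as its reverse complement.
Psmb5 (chr14:54618023-54618072, minus strand): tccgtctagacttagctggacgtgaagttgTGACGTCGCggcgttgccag
Psmb6 (chr11:70525318-70525356, plus strand): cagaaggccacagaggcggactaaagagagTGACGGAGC
Psmc6 (chr14:45329574-45329635, plus strand): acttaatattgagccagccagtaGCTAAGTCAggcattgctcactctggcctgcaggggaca
Psmd12 (chr11:107479278-107479319, plus strand): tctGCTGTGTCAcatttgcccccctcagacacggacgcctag
Psmd9 (chr5:123228129-123228189, plus strand): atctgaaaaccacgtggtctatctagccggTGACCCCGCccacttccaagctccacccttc
Counted to the RefSeq start of the gene, which can differ from the GENCODE start, the matches in Psmb5, Psmb6 and Psmd9 start 47, 9 and 31 bases before it, and those in Psmc6 and Psmd12 start 227 and 247 bases before it. In GENCODE M21 the span of Psmd9 on chromosome 5 runs from 123169413 to 123250131, so its stretch lies inside that span. A match is a run of letters and not a measured binding site.

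The CCAAT box, bound by the Nfya, Nfyb and Nfyc complex, was in 15 of the 42 promoters (35.7%) against 37.5% of all genes, again on either strand. Of the holders that were tested 5 rose and 1 fell, and 8 did not pass, where of all 48 proteasome genes tested 15 rose and 8 fell. Among all genes tested the shares were 16.7% and 9.81%. Holders were not compared with the other genes by a test. The interferon-gamma activated site, searched as TTCNNNGAA, was in 2 (4.76%), those of Psmb8 and Psmg1, against 8.13% of all genes. Neither holder passed the test of expression.

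The proteasome works on ubiquitin chains, and of 17 tested genes of ubiquitin and its activation 4 rose and 2 fell, with a median log2 change of 0.08. Among all genes tested 16.7% rose and 9.81% fell. The 2 falls of the list were in genes that encode ubiquitin itself. Ubb, a chain of ubiquitin repeats, fell from 1549.97 ± 67.1 to 1203 ± 28.3 TPM (log2 -0.36, limma adjusted p = 4.65e-05). Rps27a, ubiquitin fused to a ribosomal protein, fell from 5449 ± 338 to 4527 ± 198 TPM (log2 -0.27, limma adjusted p = 0.00176). The 4 rises were all in conjugating enzymes, which pass ubiquitin to ligases. Ube2d1 rose by 0.43 (limma adjusted p = 0.00659) and Ube2n by 0.61 (limma adjusted p = 0.00764) on the log2 scale, and Ube2k and Ube2h, chosen after their values were seen, by 0.34 and 0.65. Of 10 tested ubiquitin ligases of muscle wasting 0 passed. The best known of them are Fbxo32, with 1.67 ± 0.0443 and 1.17 ± 0.230 TPM (limma adjusted p = 0.115), and Trim63, with 0.808 ± 0.450 and 1.61 ± 0.679 TPM (limma adjusted p = 0.142), both chosen after their values were seen.

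Peptides from the proteasome are carried by Tap1 and Tap2 into the endoplasmic reticulum and loaded on MHC class I. Of 11 such genes 2 rose and 5 fell, with a median log2 change of -0.24, where 16.7% of all genes tested rose and 9.81% fell. H2-D1, a class I heavy chain, fell from 1277 ± 59.1 to 760.1 ± 31.0 TPM (log2 -0.75, limma adjusted p = 8.97e-07). B2m, the light chain, fell from 10338 ± 387 to 6881 ± 315 TPM (log2 -0.59, limma adjusted p = 2.74e-06), and by less after quantile normalization (log2 -0.25, adjusted p = 0.0186). Tap1, the neighbour of Psmb9, fell from 8.12 ± 1.78 to 4.77 ± 0.721 TPM (log2 -0.65, limma adjusted p = 0.00845). H2-K1 and Tapbp, named after their values were seen, fell by 0.57 and 0.24 on the log2 scale. The rises were in Calr (log2 1.78, limma adjusted p = 1.82e-08) and Pdia3 (log2 1.07, limma adjusted p = 1.46e-06), general folding factors of the endoplasmic reticulum that also load class I. The class I chains and Tap1 thus fell, while Psmb8 had a log2 change of 0.02 and Psmb9 and Psmb10 had lower values that did not pass.

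Interferon signalling, which induces the immune subunits, gave 1 rise and 3 falls among 13 genes tested, with a median log2 change of -0.15. Rises made up 16.7% and falls 9.81% of all genes tested. Irf1, the factor through which interferon gamma acts on Psmb9 and Tap1, fell from 16.6 ± 0.463 to 11.6 ± 1.51 TPM (log2 -0.48, limma adjusted p = 0.00828). Ifnar2, a receptor chain for type I interferon, fell by 0.35 on the log2 scale (limma adjusted p = 0.00981). Irf9, a factor that carries the type I interferon signal to its target genes, fell by 0.61 (limma adjusted p = 0.0141), but not without the first or the second 0.2 mM library (adjusted p = 0.0777 and 0.0564). Socs1, an inhibitor of the pathway, rose from 1.87 ± 0.0352 to 4.86 ± 0.956 TPM (log2 1.02, limma adjusted p = 0.000453). Ifng and Ifnb1 were listed at 0 in every library. Over the leukocyte markers 4 of 12 rose and 3 fell, and their part in these values was not tested.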

How the data were processed

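Per the submitters' processing notes, HISAT2 2.0.5, StringTie 1.3.3 and DESeq2 were used with mm10, while settings, annotation and strand use were not given in the sources used here. Total RNA was the input of the TruSeq RNA libraries, per the labels' protocols. The authors deposited TPM for 53715 gene IDs in 9 libraries. TPM is scaled to a common sum, so an abundant RNA lowers all other values; mitochondrially encoded and ribosomal RNA genes held 20.8% to 26.6%. No 2 libraries held identical values. Genes with at least 1 TPM in at least 3 libraries were tested on log2(TPM + 1) with limma (version 3.58.1, R 4.3.3), eBayes with a trend, two-sided, Benjamini-Hochberg over 10049 genes. Ratios were compared with exact permutation tests in SciPy 1.17.1. The alternatives were other pseudocounts, filters, scalings, variance models and weights, each library left out, and a replicate block. Gene positions came from GENCODE M21 on GRCm38, where all 50 symbols matched. Genes of the pathway lists looked up as Ecpas and Paaf1 were not used here. The members, the lists and the rule for named genes were chosen with earlier results of these data known. The rule named set members of each class, up to 4 genes per class or list with the smallest p among those that passed, and Nfe2l1, Pomp, Adrm1, Tap1 and Irf1. Some genes of the lists are not reported here.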

Additional observations from a re-analysis of the deposited data

Results flagged for a closer look

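In the 6 libraries at 0.8 mM, 51 results were examined for a single library far from the rest by Dixon's ratio, the gap to the nearest library over the range of the group, and 2 passed its critical value; chance flags about 1 in 20 such groups. Psmb6 in the fifth library at 0.8 mM was at 260.3 TPM, with the nearest other library at 292 TPM (ratio 0.629). That library is the lowest of the group whose mean fell. Psmf1 in the first library at 0.8 mM was at 3.86 TPM, with the nearest at 2.83 TPM (ratio 0.660).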

How the results depend on the processing

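Of the proteasome genes, 15 rose and 8 fell as reported. Rises numbered 9 after quantile normalization, where the log2 change of Psma6 was reversed at -0.070; the cause was not tested. Leaving out each library gave 12 to 15 rises, 7 to 9 falls and 2063 to 2559 calls among all genes, against 2669. The ratio difference ranged from -0.305 to -0.00151 for Psmb8 to Psmb5, from -0.333 to -0.169 for Psmb9 to Psmb6 and from -0.689 to -0.584 for Psmb10 to Psmb7. The deviations of same-numbered libraries of the groups from their group means correlated weakly (r = 0.04, 0.00 and 0.11). Deviations from means of 3 libraries cannot exclude a pairing, and the labels give only a number. With that number as a replicate block, which leaves 6 libraries, 8 proteasome genes rose, 2 fell and 1713 of all genes were called, and the same 6 libraries without the block gave 11, 6 and 2048. No alternative turned a call of a proteasome gene into a call of the opposite direction. Without read counts, limits of depth cannot be given.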
